A study of Mus musculus with 112 samples.

Results

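ESCRT-I is the complex that passes ubiquitinated membrane proteins along the endosomal sorting pathway. Its mRNAs were measured in 56 mammary tumours from crosses between mice carrying the PyMT transgene and 18 sublines of AKXD. All probe sets whose only gene symbol was one of 7 ESCRT-I subunits (Tsg101, Vps28, Vps37a, Vps37b, Vps37c, Mvb12a and Mvb12b) were taken. These are 7 of 18193 named genes and 15 of 45137 probe sets, of which 13 were read by the Affymetrix array MOE430A (array A, 22626 probe sets) and 2 by MOE430B (array B, 22511 probe sets). Vps37c and Mvb12b were chosen by their differences among sublines on array A, so those values are given as a description with no test. The other 5 subunits, with 8 array A probe sets and 1 array B probe set, were taken as partners in the same complex and were tested.

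AKXD sublines are recombinant inbred mice whose founders were AKR/J and DBA/2J. All tumours carried polyoma middle T antigen driven by the mouse mammary tumour virus promoter, which is active mainly in mammary epithelium. Sublines 2 and 25 had 4 tumours and each of the other 16 had 3, labelled as biological replicates. No subline was a control, so each comparison sets sublines against each other. The p-values of these comparisons measure differences among sublines relative to the spread between tumours of one subline. Those of correlations over tumours come from shuffling tumours across sublines. They take no account of tumours that share a subline. The animals' ages were not given in the sources used here.

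Each ESCRT-I complex holds a TSG101, a VPS28, a VPS37 and an MVB12-type (or UBAP1) protein. TSG101 binds ubiquitin on cargo and the short motifs by which retroviruses recruit the pathway, and VPS28 links the complex to ESCRT-II. VPS37 and MVB12 exist as several paralogs, encoded by separate genes. The complex also acts in the last step of cell division and in virus budding. It is best known in mammary tumour work through Tsg101, which was named a tumour susceptibility gene.

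Values are log2 RMA values (robust multi-array average). Arrays with a low correlation to the others of their type were left out: subline 23 and tumour 3 of subline 25 on array A, and, for array B, tumour 3 of subline 11, tumour 2 of subline 23 and tumour 3 of subline 25. This kept 52 arrays A in 17 sublines and 53 arrays B in 18 sublines. The lowest median correlation of a kept array A was 0.970 and the highest of a left-out one was 0.948. Luminal epithelial markers were high in the kept tumours, with Epcam at 13.12 ± 0.14 and Krt8 at 12.59 ± 0.20 on the log2 scale (SD, n = 52 tumours). These are whole tumours, so fewer cells of a type and less RNA per cell cannot be told apart.

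Vps37c lies on chromosome 19 and Mvb12b on chromosome 2. Their promoter sequences, from RefSeq on build GRCm38.p6, are shown because the widest ranges described below are those of these genes. Capitals mark matches, on either strand, to 4 motifs: the GC box GGGCGG, the E-box CACGTG, the CCAAT box CCAAT and the TATA box TATAAA. RefSeq gives Vps37c 2 starts, with promoter windows of 300 bases at chr19:10688485-10688784 and chr19:10700518-10700817 (both plus strand). Mvb12b has 1, with its window at chr2:33887897-33888196 (minus strand).
Vps37c, first start: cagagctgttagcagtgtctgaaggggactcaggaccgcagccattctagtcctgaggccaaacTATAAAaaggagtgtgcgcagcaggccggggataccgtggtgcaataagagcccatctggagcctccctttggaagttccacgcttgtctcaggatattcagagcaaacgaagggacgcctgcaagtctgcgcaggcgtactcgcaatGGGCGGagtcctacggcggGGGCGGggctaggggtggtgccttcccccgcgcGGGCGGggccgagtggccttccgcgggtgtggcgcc
Vps37c, second start: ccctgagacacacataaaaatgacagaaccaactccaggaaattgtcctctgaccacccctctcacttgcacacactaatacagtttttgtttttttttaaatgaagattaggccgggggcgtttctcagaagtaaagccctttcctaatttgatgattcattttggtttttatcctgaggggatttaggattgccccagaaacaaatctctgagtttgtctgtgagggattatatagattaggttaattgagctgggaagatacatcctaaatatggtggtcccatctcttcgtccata
Mvb12b: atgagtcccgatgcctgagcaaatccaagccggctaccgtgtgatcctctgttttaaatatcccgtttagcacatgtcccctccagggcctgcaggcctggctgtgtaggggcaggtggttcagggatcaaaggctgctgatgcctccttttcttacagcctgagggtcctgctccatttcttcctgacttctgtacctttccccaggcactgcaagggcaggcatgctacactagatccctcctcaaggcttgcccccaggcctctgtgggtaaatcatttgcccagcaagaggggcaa
The first Vps37c window held 3 GC boxes and 1 TATA box, and neither its second window nor the Mvb12b window held a match. Among 32851 promoters of the same table, 35.7% held a GC box, 7.15% an E-box, 37.4% a CCAAT box and 13.6% a TATA box. The first Vps37c window was 63% G and C with 22 CpG, against medians of 52.7% and 7 over all promoters, and the second was 40.3% with 3 CpG.

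Vps37c, one of the paralogs of the VPS37 subunit, stood highest in tumours of subline 22. Its probe set 1437615_s_at read 9.49, 9.19 and 9.01 in subline 22, and 8.30, 8.26 and 8.52 in subline 14, the lowest. All tumours of subline 22 lay above all tumours of subline 14, with a gap of 0.49. Here and below the sublines compared are the extremes of their order, so separate ranges are partly built in. The share of all probe sets with such a gap was not computed. The subline means were 9.23 ± 0.24 in subline 22 and 8.36 ± 0.14 in subline 14 (SD, n = 3 each), a 1.83-fold difference. Subline 21 was next to the top with a mean of 9.00, and sublines 3 and 10 were next to the bottom. The share of variance between sublines (intraclass correlation) was 0.67. Each subline's tumours overlapped with those of the next subline in the order in 16 of 16 neighbouring pairs (the same held for all 15 probe sets).

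The second Vps37c probe set, 1426227_s_at, gave a smaller spread with the same highest subline. It read 9.03, 9.25 and 9.12 in subline 22, and 8.59, 8.64 and 8.54 in subline 28, the lowest, a 1.46-fold difference between the means. The 2 probe sets correlated over 52 tumours at r = 0.62 (Spearman rho 0.67). They parted in subline 21, which read 8.95, 9.12 and 8.92 on 1437615_s_at. On 1426227_s_at that subline read 8.64, 9.07 and 8.64. They also parted at the low end. Sublines 14 and 3 lay 0.42 and 0.36 below the mean of the other sublines on 1437615_s_at, but 0.12 and 0.05 below it on 1426227_s_at. After each subline's mean was removed, the correlation was 0.27. Both probe sets carry the suffix _s_at, which marks probes that can match several transcripts.

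**Figure D1:**
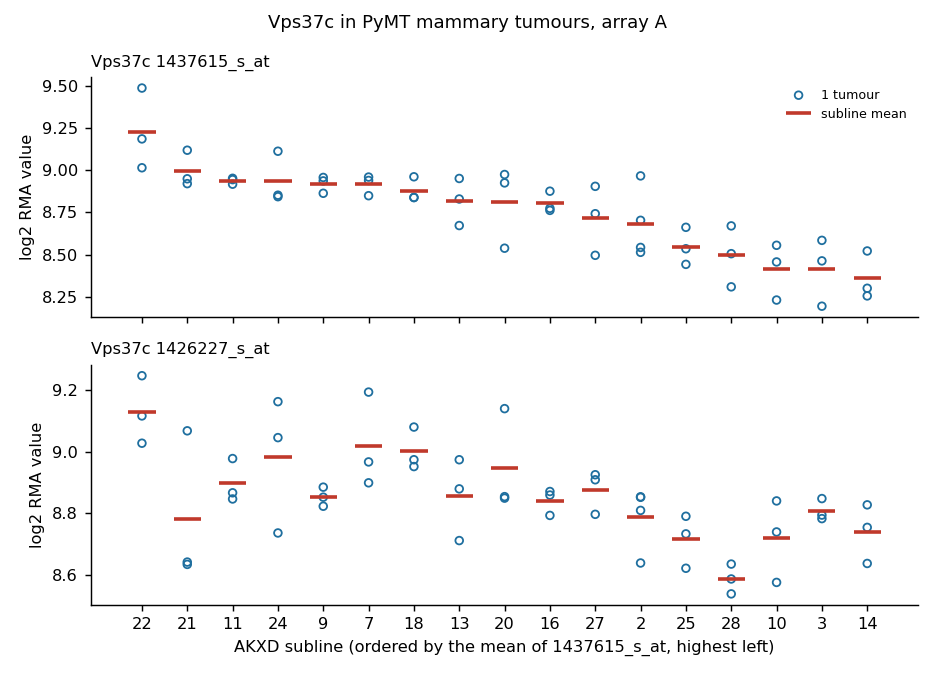
Vps37c log2 RMA values on array A for 2 probe sets (upper and lower panel), by AKXD subline, ordered by the mean of 1437615_s_at. Circles are tumours and bars are subline means. Subline 22 is highest on both probe sets, and subline 14 is lowest on the upper one, at 8.36.

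Mvb12b, one of the paralogs of the MVB12 subunit, was highest in subline 21 on probe set 1428122_s_at. Its tumours read 8.25, 7.51 and 8.06 in subline 21, and 6.96, 7.23 and 7.04 in subline 18, the lowest. The groups, again the extremes of the order, did not overlap. The means of 7.94 ± 0.38 in subline 21 and 7.07 ± 0.14 in subline 18 (SD, n = 3 each) differed 1.83-fold. Subline 22 followed at 7.72 and subline 13 at 7.65. Tumour 2 of subline 21 was below every tumour of subline 22, so the lead of subline 21 rests on its tumours 1 and 3. Tumour 1 had the lowest median correlation of the kept A arrays (0.970). Tumour 3 had the largest 3′ minus 5′ Gapdh difference of them, 0.19 log2 units against a median of −0.18, and tumours 1 and 2 of subline 22 were at 0.09 each. Tumour 1 of subline 27 (0.12) and tumour 2 of subline 28 (0.09) were also raised, and read 7.49 and 7.17 on 1428122_s_at, whose median was 7.26. The part of these array differences in the values was not tested. Without all tumours numbered 1 the fold between extreme sublines was 1.76, with subline 16 lowest. Without those numbered 3 it was 1.78, with subline 9 lowest. Subline 21 was highest in both, but each setting kept either its tumour 1 or its tumour 3. The lead was not examined without both, and 1428122_s_at was not among the probe sets called in either setting. The intraclass correlation was 0.67, and again 16 of 16 neighbouring pairs overlapped.

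The other Mvb12b probe sets did not follow that order. 1428121_at ranged 1.15-fold, between 10.98 in subline 9 and 10.77 in subline 27. 1428123_at ranged 1.28-fold, between 7.24 in subline 13 and 6.88 in subline 24. In subline 21, 1428121_at read 10.97, 10.91 and 10.85, and in subline 22 it read 10.90, 10.98 and 10.91, inside the range of the other tumours. Over 52 tumours 1428122_s_at correlated with 1428121_at at r = −0.04 and with 1428123_at at −0.07, whereas 1428121_at and 1428123_at correlated at 0.56. The array B probe set 1444005_at correlated with 1428122_s_at at 0.46 over 51 tumours kept on both arrays. That probe set averaged 4.92, against poly-A control probe sets whose means on the kept B arrays were 4.56 to 4.83, and its highest subline was 23, with 5.55 and 4.95, followed by sublines 21 and 22. Tumour 1 of subline 23 also had the largest excess of 3′ over 5′ Gapdh signal among kept B arrays, at 1.23 on the log2 scale, and its part in the value was not tested. With subline 21 first and subline 22 next, 1428122_s_at was thus alone among the 3 Mvb12b probe sets of array A. It is also the only one of the 3 with the suffix _s_at.

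**Figure D2:**
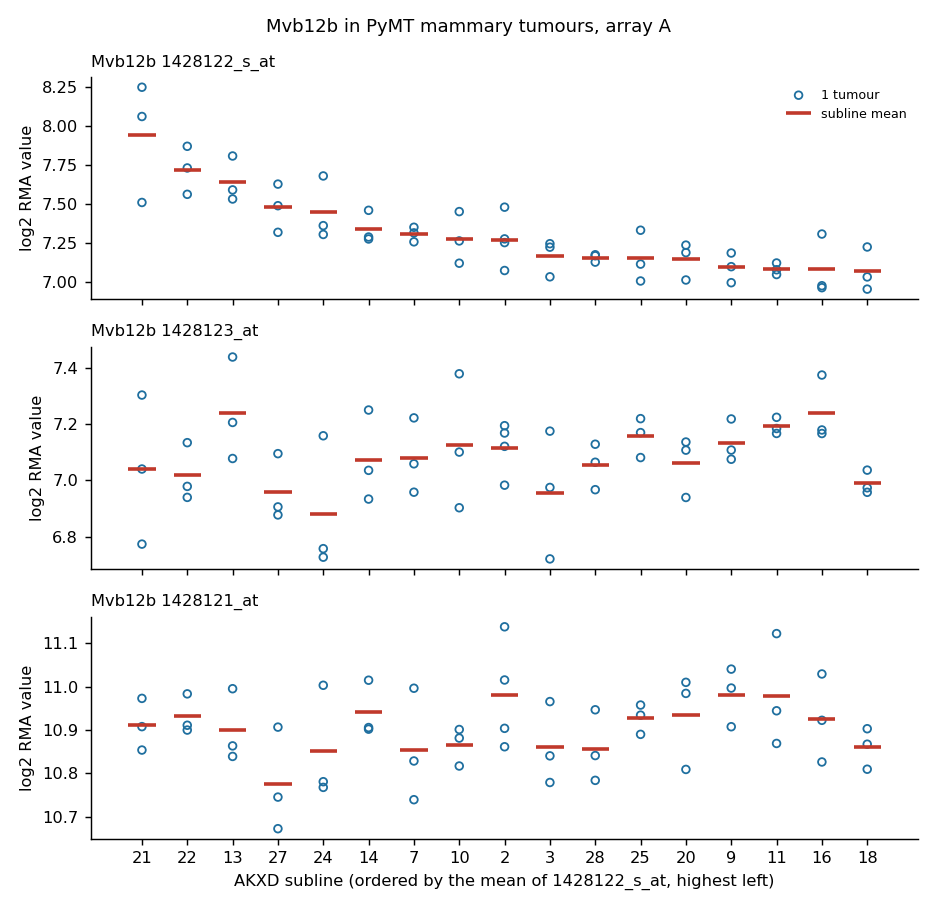
Mvb12b log2 RMA values on array A for 3 probe sets, by AKXD subline, ordered by the mean of 1428122_s_at. Circles are tumours and bars are subline means. Sublines 21 and 22 lead on 1428122_s_at alone, at 7.94 and 7.72.

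These values were among those that put the genes on the list, and they are given with their rank only. By the moderated F test over all probe sets of array A, 1428122_s_at ranked 24 and 1437615_s_at ranked 27 of 22626. 1426227_s_at ranked 366, close to the end of the 393 that were called. A range of subline means as wide as that of 1437615_s_at was held by 5.69% of array A probe sets, and one as wide as that of 1428122_s_at by 5.65%. Sublines 22 and 21 also led many other probe sets. Set against the mean of the other sublines, subline 22 had 217 probe sets called higher and 579 lower, and subline 21 had 545 higher and 224 lower, of 1764 calls over all 17 sublines. With all 56 arrays A the fold between the extreme sublines was 2.10 for 1437615_s_at and 2.02 for 1428122_s_at. Subline 25 was then lowest on both, and its tumour 3, on an array left out elsewhere, read 7.00 and 6.24. Neither probe set was among those called with all arrays.

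The same sublines stood at the ends of several cell type scores, taken as the mean over a marker list of each gene's log2 value minus its own mean. Subline 22 had the highest of 17 means for adipocyte markers (5 of 7 measured, 0.998 log2 units, tumours 0.12 to 1.46) and for skeletal muscle markers (7 of 7 measured, 1.52, tumours 0.21 to 2.79). It was also highest for macrophage (0.44, tumours 0.14 to 0.65), luminal epithelial (0.19, tumours 0.03 to 0.35) and T cell markers (0.09, tumours −0.08 to 0.28), and lowest for basal epithelial markers (−0.38, tumours −0.46 to −0.29). Subline 21 had the lowest for adipocyte markers (−0.81, tumours −1.03 to −0.69), for skeletal muscle markers (−1.41, tumours −2.72 to −0.73) and for luminal epithelial markers (−0.31, tumours −0.82 to 0.07), and likewise for T cell (−0.11, tumours −0.18 to 0.01) and B or plasma cell markers (−0.33, tumours −0.36 to −0.31). With the scores of skeletal muscle, adipocytes, T cells and B or plasma cells as covariates, the fold between the extreme sublines was 1.81 for 1437615_s_at and 1.76 for 1428122_s_at, against 1.83 for each without them. Macrophage, luminal and basal scores were not among the covariates, and their part in the result was not tested. The other Vps37c probe set, 1426227_s_at, gave 1.41-fold with them and 1.46-fold without. Over tumours, Tsg101 passed against none of 10 marker lists, with a smallest adjusted p of 0.0642 (two-sided permutation test, 100000 resamples, Benjamini-Hochberg over 30 correlations, tumours shuffled across sublines). Its r ran from −0.39 for T cell and −0.38 for adipocyte markers, through −0.36 for fibroblast and −0.35 for endothelial, to 0.17 for milk protein markers. Given as a description, r ran from −0.38 (luminal) to −0.03 (macrophage) for Mvb12b 1428122_s_at. For Vps37c 1437615_s_at it ran from −0.07 (basal) to 0.26 (milk protein).

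Of the 5 other subunits 0 of 8 array A probe sets were called among sublines, against 1.74% of all array A probe sets (limma moderated F test, Benjamini-Hochberg, called under 0.05). Their only array B probe set was not called either, against 0.671% of all array B probe sets. At an unadjusted p under 0.05 the counts were again 0 on both arrays, against 15.2% of array A and 11.0% of array B probe sets. Their median range of subline means on array A was 0.26 log2 units, and the median over all array A probe sets was 0.33.

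Tsg101 is the ubiquitin-binding core subunit. Its probe set 1417004_at ranged over tumours from 9.85 through a median of 10.12 to 10.41. The highest subline, 7, averaged 10.24 ± 0.15 and the lowest, 22, averaged 10.00 ± 0.05 (SD, n = 3 each), a 1.18-fold difference with an adjusted p of 0.433 (limma). Vps28, the other core subunit, ranged from 11.02 through 11.21 to 11.54 on 1448447_at. Subline 10 was highest at 11.32 and subline 16 lowest at 11.08, 1.18-fold apart (adjusted p = 0.909, limma). For both genes the tumours of the highest subline lay just above those of the lowest, by 0.02 for Tsg101 and 0.03 for Vps28, and all neighbouring sublines overlapped.

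Vps37a and Vps37b are the other VPS37 paralogs measured among the members. Vps37a had 8.76 in subline 21 and 8.52 in subline 14 on 1419177_at, 1.18-fold (adjusted p = 0.717), and 6.50 in subline 21 and 6.18 in subline 13 on 1419176_at, 1.25-fold (adjusted p = 0.906, limma). Those probe sets correlated at r = 0.56 over 52 tumours (rho 0.47, adjusted p = 7.8e-05 for r, two-sided permutation test). The array B probe set of Vps37a, 1429363_at, correlated with neither, at r = 0.01 and 0.00 over 51 tumours. Its highest subline was 23, with tumours at 7.11 and 6.37, against 6.12 as the mean of subline 20, the lowest (1.54-fold, adjusted p = 0.719, limma). The higher tumour of subline 23 is the one with the Gapdh value named above.

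Vps37b, on 1424380_at, was highest in subline 25 at 9.06, 9.13 and 8.89, and lowest in subline 21 at 8.39, 8.92 and 8.74. The difference between the means was 1.27-fold with an adjusted p of 0.391 (limma), and the tumours overlapped. When all 56 arrays A were used, with subline 23 included, Vps37b was called at an adjusted p of 0.0329, the only one of the 5 subunits to be called under any setting tried, and its adjusted p ran up to 0.974 over the others. With all arrays its lowest mean was that of subline 23, at 8.04.

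Mvb12a, the other MVB12 paralog, was represented by 3 probe sets that ranged 1.16-fold to 1.23-fold. 1437043_a_at was highest in subline 10 at 10.18 and lowest in subline 9 at 9.88. 1424773_at was highest in subline 3 at 9.55 and lowest in subline 20 at 9.28. 1455895_x_at was highest in subline 22 at 7.99 and lowest in subline 9 at 7.78, and the suffix _x_at marks probes shared with unrelated sequences. Their adjusted p-values among sublines were 0.738, 0.581 and 0.624 (limma). The 3 pairs of these probe sets correlated at r = 0.63, 0.53 and 0.32 over 52 tumours, with adjusted p-values of 7.8e-05, 7.8e-05 and 0.0342 (two-sided permutation test).

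**Figure D3:**
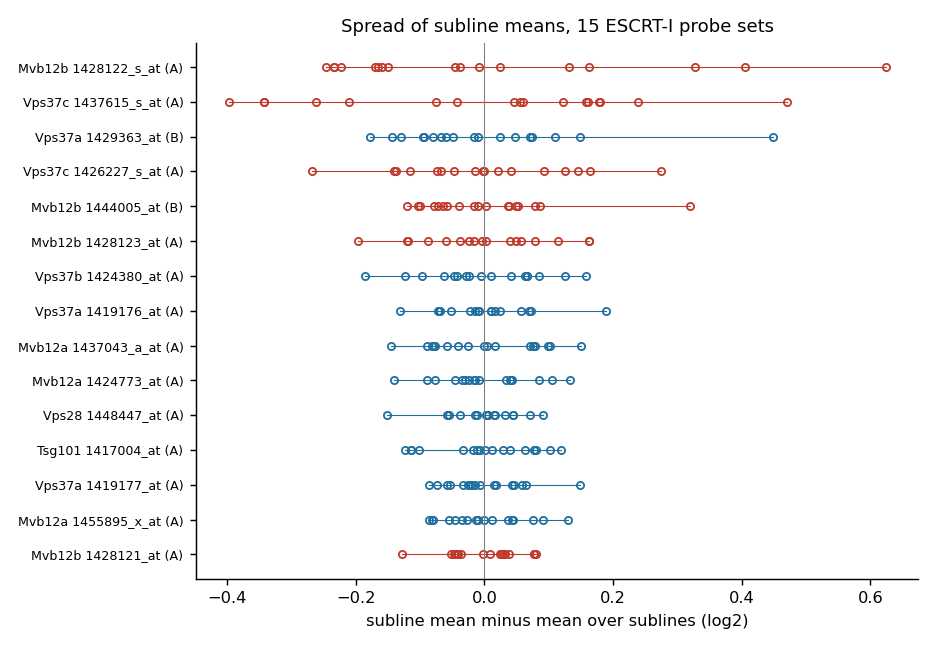
Subline means of 15 ESCRT-I probe sets, each as the difference from the mean over sublines (log2 units), with the array in brackets. Points are sublines and lines span the range. Red marks Vps37c and Mvb12b, and the widest ranges are 0.87 for 1428122_s_at and 1437615_s_at.

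Each subline was also compared with the mean of the others. For the 5 subunits 0 of 136 comparisons on array A were called (limma, Benjamini-Hochberg within each subline, background 0.459%), with 9 at an unadjusted p under 0.05 (background 7.56%) and a smallest adjusted p of 0.108. That smallest value was Vps37b in subline 21, which lay 0.20 ± 0.07 log2 units (SE) below the others. For array B the count was 0 of 18 (background 0.276%), with 1 at an unadjusted p under 0.05 (background 6.64%), which was Vps37a 1429363_at in subline 23, 0.48 ± 0.14 above the others with an adjusted p of 0.0526. Given as a description for the singled-out genes, subline 22 lay above the others by 0.50 on 1437615_s_at, 0.29 on 1426227_s_at and 0.43 on 1428122_s_at, and subline 21 by 0.66 on 1428122_s_at.

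Pairs of subunits were compared over tumours with the brightest array A probe set of each, which is 1426227_s_at for Vps37c and 1428121_at for Mvb12b. Of 21 pairs over 52 tumours, 1 passed: Vps28 and Mvb12a at r = 0.45 (adjusted p = 0.0176, two-sided permutation test with 100000 resamples). Its Spearman rho was 0.40 with an adjusted p of 0.0615, and r was 0.46 without the 2 tumours farthest from the median and 0.44 for deviations from subline means. Among all pairs of array A probe sets, 7.76% had an absolute r at least as large. The median absolute r was 0.13 over the 21 pairs and 0.17 over all pairs. On these probe sets Vps37c and Mvb12b correlated at −0.09 (adjusted p = 0.699), and Vps37c with Tsg101 at −0.18 (adjusted p = 0.501). The probe sets with the wide ranges, 1437615_s_at and 1428122_s_at, correlated at 0.30 over the same tumours and at 0.00 after subline means were removed, which is given as a description.

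**Figure D4:**
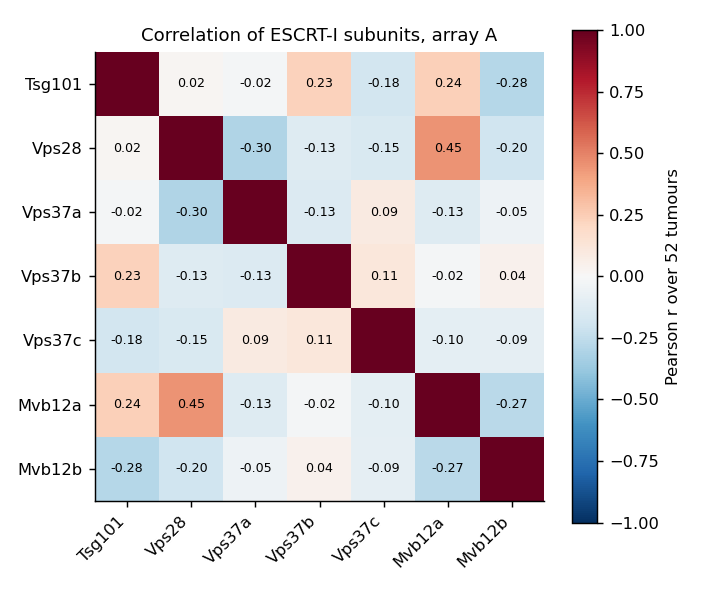
Pearson r over 52 tumours between the brightest array A probe sets of the 7 ESCRT-I subunits (colour scale −1 to 1, values printed). Vps28 with Mvb12a, at 0.45, is the pair with the largest absolute value.

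The gene whose subline means were most like those of Vps37c was Prpf19, a component of the spliceosome that lies 7 genes from Vps37c on chromosome 19. Over 17 subline means its probe set 1419839_x_at correlated with 1437615_s_at at 0.90. The suffixes _x_at and _s_at carry the limits named above. Another Prpf19 probe set, 1449635_at, with neither suffix, correlated with 1437615_s_at at 0.89. This likeness is a description, since the points share the same arrays and Vps37c was chosen for its pattern. Over 52 tumours r was 0.78, and for deviations from subline means it was 0.51. Within the 12 sublines with the highest Vps37c means (37 tumours) r was 0.68, and within the 5 lowest (15 tumours) it was 0.28, a division made after the values were seen, with ranges that overlapped for both genes. With the other Vps37c probe set, 1426227_s_at, the subline means of Prpf19 correlated at 0.67.

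Prpf19 itself was called among sublines on 2 of its 3 probe sets. 1419839_x_at was highest in subline 24 at 10.98 and lowest in subline 25 at 10.52, 1.38-fold (adjusted p = 0.0293, limma), and 1449635_at was called at 0.0335. The other probe set, 1460633_at, was not (adjusted p = 0.670) and correlated with 1437615_s_at at 0.04 over subline means. These 2 probe sets of Prpf19 were the only ones called among 22 probe sets of the 10 genes on either side of Vps37c on array A. Over all array A probe sets the share called was 1.74%. For the neighbours of the other 6 subunits 0 probe sets were called on array A, of 4 to 19 per subunit. Array B had 0 for all 7, of 4 to 13 per subunit, against 0.671% of all its probe sets. With so few probe sets, counts of 0 are near those shares and do not set these neighbours apart.

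**Figure D5:**
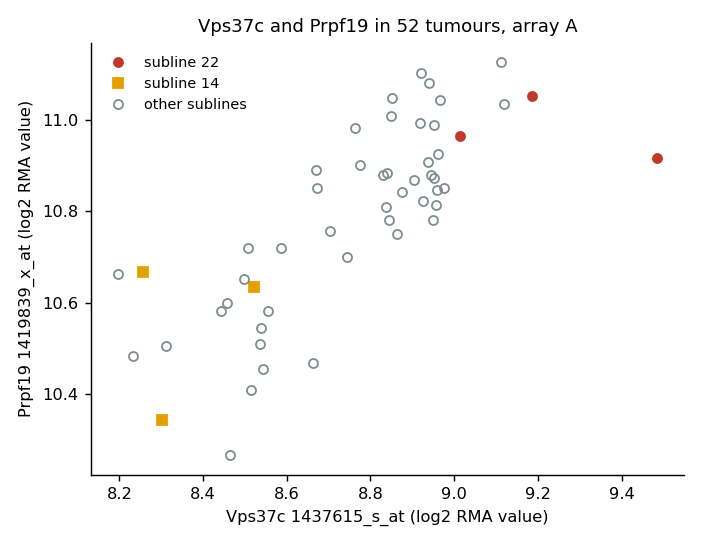
Log2 RMA values of Vps37c 1437615_s_at (horizontal) and Prpf19 1419839_x_at (vertical) in 52 tumours on array A. Tumours of subline 22 (red) lie to the right and those of subline 14 (orange) to the left, and r over tumours was 0.78.

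After Prpf19, the genes most like Vps37c over subline means were Stk10 (a protein kinase), Vcam1 (a cell adhesion molecule), Cerk (ceramide kinase) and Leng1, with r of 0.84, 0.82, 0.78 and 0.78. For Stk10, Vcam1 and Cerk the deviations from subline means correlated near 0, at −0.10, −0.08 and −0.10, and for Leng1 at 0.45. The most opposite were Eif3m, Dpy30 and Psmg2, at −0.81, −0.81 and −0.79. On 1428122_s_at, Mvb12b was most like Pdgfa (a growth factor), Ube2f (a NEDD8-conjugating enzyme), Ncdn, Ndrg3 and Camk2g (a calmodulin-dependent kinase), at 0.88, 0.87, 0.86, 0.86 and 0.85. Its most opposite gene on that probe set was Ptprk at −0.85. The other Mvb12b probe sets of array A did not follow 1428122_s_at and were not compared in this way. Tsg101 was most like Kcmf1 at 0.85, and most opposite Fzd2 at −0.78. Of the 20 genes most like Vps37c, 3 (15%) lay on its chromosome, which holds 3.57% of the genes compared. For Mvb12b (1428122_s_at) and Tsg101 the counts were 2 of 20 each (10%), against 7.79% and 7.73% of the genes.

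The rest of the pathway was described by counts. Of 31 genes of ESCRT-0, ESCRT-II, ESCRT-III, the VPS4 disassembly machinery, further ESCRT-I subunits and adaptors, 26 were measured on array A by 46 probe sets and 15 by 23 on array B, with 0 called on either (limma, Benjamini-Hochberg; 1.74% and 0.671% of all probe sets). At an unadjusted p under 0.05 there were 3 of 46 for array A, against 15.2% of all its probe sets, and 5 of 23 for array B, against 11.0%. The smallest adjusted p on array A was 0.112 for Chmp1a, a regulatory ESCRT-III subunit, at 11.25 in subline 22 and 10.89 in subline 21. For array B the smallest was 0.136, for Mgrn1, a ubiquitin ligase, at 9.44 in subline 24 and 8.88 in subline 23. Hgs, the ESCRT-0 subunit that binds ubiquitinated cargo, had 10.76 in subline 22 and 10.46 in subline 28 (adjusted p = 0.437), and Vps4b, an ATPase that recycles ESCRT-III, had 10.48 in subline 22 and 10.24 in subline 13 (adjusted p = 0.957, limma). The median range of subline means over the 46 array A probe sets was 0.30.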

How the data were processed

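The authors deposited log2 values from RMA, per the submitters' processing notes. Its version and the build are not given in these sources. The values were used as deposited, from 3.71 to 14.89 on array A and 3.51 to 14.35 on array B, and precision depends on the number of arrays. Control probe sets (64 per array) were left out. Symbols came from the platform annotation, updated through RefSeq: on array A 20380 probe sets had 1 symbol, 691 several and 1555 none, and on array B 14661, 245 and 7605. Subline differences were fitted in R 4.3.3 with limma 3.58.1 (1 mean per subline, Benjamini-Hochberg over an array, called under 0.05), and each subline against the unweighted mean of the others in the same fit. Correlations used permutation tests (Python 3.11.15, numpy 2.4.6). Members, gene lists and kept arrays were chosen with earlier results of these data known. Named were all members, up to 5 most like and 3 most opposite genes, called neighbours, and some of the brightest pathway genes; Mgrn1 was chosen after its values were seen. The limma tests were tested on simulated data with changes in 1 subline. Of changes of 0.5 log2 units 36% were called on array A and 42% on array B. Of changes of 1 log2 unit 85% and 91% were called. False calls were 6 of 127 and 4 of 137. Alternatives were all arrays, the replicate block, quantile normalization, median centring, no dimmer probe sets, array weights, a trended robust prior, composition covariates and leaving out replicates.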

Additional observations from a re-analysis of the deposited data

How the results depend on the processing

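The count of probe sets called among sublines moved with the arrays used. Against 393 on array A and 151 on array B, it was 889 and 30 with all arrays and 4997 and 1946 with array weights, and leaving out a replicate number gave 14 to 389 on array A and 25 to 255 on array B. Composition covariates gave 93 on array B. Calls of each subline against the others (1764 on array A, 1118 on array B) came to 15709 and 2986 with all arrays and 15691 and 9276 with array weights, 494 on array B with composition covariates, and 525 to 1676 and 652 to 2713 without a replicate number. With the replicate number as a block the calls were 403 and 1772 on array A and 125 and 1076 on array B. Same-numbered tumours deviated together with a median correlation of 0.0007 on array A and 0.016 on array B. The medians for other pairs were −0.003 and −0.013. Of the same-numbered pairs 29.3% and 34.6% lay above 0.1, a share not computed for other pairs. The medians gave no sign that the numbers pair the tumours, but cannot exclude it. Of the 5 tested subunits only Vps37b with all arrays was called, and no other setting called one of their probe sets; leaving out the dimmer probe sets kept 6 of the 9 for testing. The fold between extreme sublines ran from 1.71 to 2.10 for Vps37c 1437615_s_at and from 1.72 to 2.24 for Mvb12b 1428122_s_at. These 2 probe sets lost their place among those called with all arrays and without replicate 1, and 1428122_s_at also without replicate 3; 1426227_s_at lost it under 8 of 12 settings, including each left-out replicate. Of 13 pairs of probe sets of one gene, 7 passed, and 4 after removing subline means. With all arrays 3 pairs turned direction, Vps37a 1419176_at and 1419177_at at −0.30, Mvb12b 1428121_at and 1428123_at at −0.12, and Mvb12b 1428122_s_at and 1444005_at at −0.012. That setting differs by the left-out arrays alone, and which of them turned each pair was not tested. Among the left-out arrays, tumour 3 of subline 23 read 6.79 on Mvb12b 1428121_at, against 10.67 to 11.14 on kept arrays, and with all arrays that probe set's fold was 2.78, against 1.15.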
